A study of Bactrocera dorsalis with 16 samples.

Results

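The early change of the fat body was described from 4 of the 16 small RNA libraries of the series, which sampled ovary and fat body of female adults of the oriental fruit fly Bactrocera dorsalis. Fat body collected 1 day after eclosion, the emergence of the adult from the pupal case, gave 2 libraries, and fat body collected 5 days after eclosion gave 2. All 4 came from flies of the same laboratory culture, reared on yeast extract and sugar in a light and dark cycle, with no treatment. The series calls its replicates biological, and the labels do not say how many flies were pooled or whether libraries came from separate cages, so the p-values measure only the spread between these libraries. The measured unit is the normalised signal of a mature sequence, as deposited. Sequences with a signal of at least 10 in 2 or more of the 4 libraries were kept, which left 214 of the 747 distinct sequences of the table. Known miRNA names stood on 168 of these, and 46 had PC names, which mark predicted candidates. At the edge of this limit, the second highest signal of bdo-mir-958-p5, which was kept, was 10.2 and that of PC-3p-106115_78, which was not, 9.96. The kept sequences held at least 99.8% of each library's signal.

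A miRNA is a small RNA that guides a silencing complex to messenger RNAs, mainly by pairing of its seed, bases 2 to 8, so sequences with the same seed can share targets. A hairpin precursor gives a 5p and a 3p arm, and each arm can occur in forms that differ by bases at the ends. The fat body is the insect organ of fat and glycogen storage and, in adult females, the source of yolk proteins, and in Drosophila larval fat cells persist into the first days of adult life before adult fat body replaces them. In the names below a prefix such as dme or dvi stands for the species in which the matched miRNA is known, a suffix such as R+1 or L-1 gives bases added or lost at the right or left end, and 1ss20CT marks 1 substitution at position 20 against the matched miRNA.

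The main sequences described below are shown as the table gives them, 5′ to 3′ in DNA letters with the seed in capitals. They comprise the miRNAs that rose with a miR-275, miR-305, miR-34, miR-317 or miR-274 number, the most abundant of those that fell, and the abundant pair miR-276a and miR-8. Of these, miR-8 did not pass the test.
bdo-miR-275: tCAGGTACctgaagtagcgcgcg
bdo-miR-305: aTTGTACTtcatcaggtgctctgg
dvi-miR-34-5p: tGGCAGTGtggttagctggtt
dme-miR-317-3p_R-2_2ss21CT22AC: tGAACACAgctggtggtatctc
dme-miR-274-5p_R-1: tTTGTGACcgacactaacgggt
bdo-mir-282-p5: tAGCCTCTactaggctttgtct
bdo-mir-281-p3: cTGTCATGgaattgctcttttt
dgr-miR-279_R-2: tGACTAGAtccacactcatt
bdo-miR-9b_R-1: tCTTTGGTgattttagctgtat
bdo-miR-2a-2_L+2R-2: tATCACAGccagctttgatgagc
bdo-miR-2b_R-3: tATCACAGccagctttgagga
bdo-mir-276b-p3: tAGGAACTtaataccgtgctct
bdo-miR-276a: tAGGAACTtcataccgtgctct
bdo-miR-8_R+1: tAATACTGtcaggtaaagatgtc

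The summed signal was 687955 and 697665 in the day 1 libraries and 656505 and 638669 in the day 5 libraries. Depth differed more. The spacing of the values gave recovered reads of 1538393 and 784220 at day 1 and 213320 and 417784 at day 5, so that both day 5 libraries were shallower than both day 1 libraries and day and depth cannot be told apart. A signal of 10 stood for 22.4 and 11.2 reads at day 1 and for 3.25 and 6.54 reads at day 5. The SD over sequences of the log2 ratio between replicates was 0.63 at day 1 and 1.09 at day 5. Over sequences with a mean signal of 100 or more it was 0.49 and 0.58. The fat body label was checked on miR-8, miR-276 and miR-14, which together took 62.9% and 64.0% of the signal at day 1 and 62.1% and 64.8% at day 5, against 33.1% to 41.7% in the 4 ovary libraries of these days. The check rested mainly on bdo-miR-8_R+1, at 150156 to 222100 in fat body and 22734 to 36603 in ovary. The contrast was smaller for bdo-miR-276a, at 249217 and 252460 against 161857 and 169170 in ovary at day 1. The signal of bdo-miR-14 overlapped at day 1, at 15182 and 13420 against 13715 and 9668 in ovary. At day 5 it stood at 9517 and 12137 against 8471 and 6819.

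Between the day 1 and day 5 libraries the signal of some conserved miRNAs rose in the fat body and that of others fell. As given above, day and depth cannot be told apart in these libraries. The abundant sequences that rose included the egg development miRNA miR-275, the ageing miRNA miR-34 and miR-317, and those that fell included miR-282, miR-281 and miR-279. With limma and a threshold of 0.05 on the adjusted p, 46 of the 214 sequences (21.5%) passed, of which 31 were higher (14.5%) and 15 lower (7.01%) at day 5. Of the 31 called higher, 9 were predicted candidates. Signals did not overlap between the days for 139 sequences (65%), of which the called ones were 46. The called higher sequences took 1.70% and 1.71% of the signal at day 1 and 5.86% and 5.99% at day 5, and the called lower ones 43.8% and 43.0% and then 33.0% and 29.5%. On the recovered reads edgeR called 62 (29%), including all 46, and DESeq2 called 43 (20.1%), of which 40 were among the 46. In these bulk tissue libraries fewer cells of a type and less RNA per cell cannot be told apart. The calls rest on all 4 libraries and on the spread assumed. No sequence was called without day 1 replicate 1 or without day 1 replicate 2 (30 and 46 at an unadjusted p under 0.05), and 26 and 41 were called without day 5 replicate 1 or 2. With the spread of all 16 libraries of the series in the fit, 2 were called, miR-275 and miR-317.

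**Figure D1:**
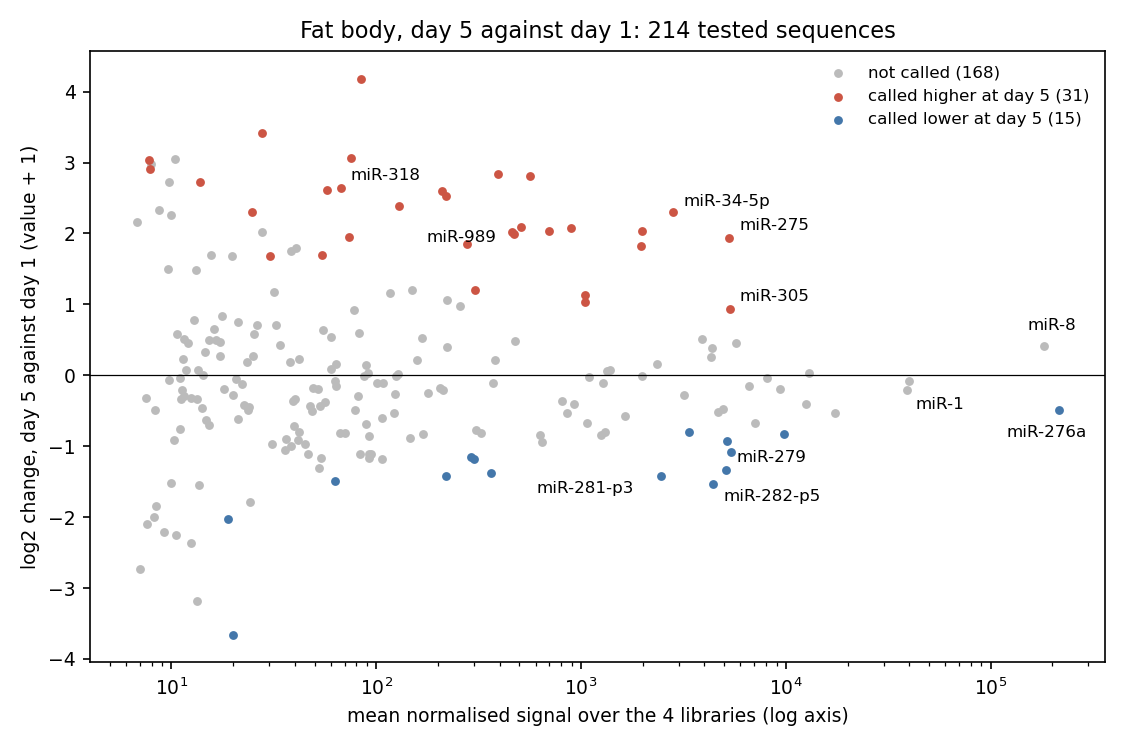
Log2 change from day 1 to day 5 against the mean normalised signal over the 4 libraries (log axis), 1 point per tested sequence, coloured by limma call. The 31 sequences called higher include bdo-miR-305 at a mean of 5309.8 as their most abundant member, and the 15 called lower include miR-276a, the most abundant sequence.

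The miR-275 hairpin and its neighbour miR-305, which lie in 1 cluster in Drosophila, rose together. The miRNA miR-275 is needed for blood digestion and egg development in mosquitoes. Its main form bdo-miR-275 stood at 2209 and 2149.9 at day 1 and 7665 and 9027 at day 5. The day 5 libraries were both above both day 1 libraries, with a 3.82-fold rise (log2 1.93, SE 0.20, adjusted p = 0.00113, limma on log2 of value + 1, the scale of every fold given here). Its share of the library totals went from 0.321% and 0.308% to 1.17% and 1.41%. The form with 1 more base, dme-miR-275-3p_R+1, went from 191 and 191 to 718 and 929 (log2 2.09, SE 0.29, adjusted p = 0.00355). The form with 2 more, aga-miR-275_R+2, rose 3.88-fold and the opposite arm bdo-mir-275-p5 3.24-fold. All 4 tested miR-275 sequences were thus called. The main form kept between 88.5% and 90.3% of the signal of the 4 in every library, so forms and arms kept nearly the same proportions as the level rose. The miRNA miR-305 acts in Drosophila on insulin and Notch signalling in gut stem cells. Its main form was measured at 4195 and 3138 at day 1 and 6272 and 7635 at day 5 (1.91-fold, log2 0.93, SE 0.22, adjusted p = 0.0247). Its opposite arm, dme-miR-305-3p_1ss20CT, stood at 655 and 657 at day 1 and 1391 and 1487 at day 5 (2.19-fold, log2 1.13, SE 0.24, adjusted p = 0.0155). The third tested miR-305 sequence, isc-miR-305_R+3, had a log2 change of 0.08 and did not pass. The rise of miR-305 was smaller than that of miR-275 in both arms, a difference that was not tested. The miRNA bdo-miR-306 shares the miR-275 seed and stood at 1495 and 1160.02 at day 1 and 1882 and 1012 at day 5 (log2 0.07, adjusted p = 0.907).

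Of the cluster of miR-34, miR-277 and miR-317, which Drosophila makes from 1 transcript, miR-34 and miR-317 rose. In Drosophila miR-34 bears on lifespan and on the upkeep of the ageing brain. The arm dvi-miR-34-5p stood at 794 and 1121 at day 1 and 4464 and 4852 at day 5, a 4.93-fold rise (log2 2.30, SE 0.24, adjusted p = 0.00113), and its share of the totals went from 0.115% and 0.161% to 0.680% and 0.760%. The form with 2 more bases, aae-miR-34-5p_R+2, rose 3.22-fold (log2 1.68, SE 0.49, adjusted p = 0.0448). The opposite arm dvi-miR-34-3p stood at 129.99 and 154 at day 1 and 255 and 346 at day 5 and did not pass (log2 1.06, SE 0.33, adjusted p = 0.0534). Within miR-34 the main 5p form took 84.8% and 86.9% of the signal at day 1 and 93.8% and 92.4% at day 5. The cluster member dme-miR-317-3p_R-2_2ss21CT22AC stood at 678 and 883 at day 1 and 2883 and 3506 at day 5, 4.11-fold higher (log2 2.04, SE 0.25, adjusted p = 0.00199). Its opposite arm dme-miR-317-5p_1ss1TC stood at 56.1 and 50.5 at day 1 and 111 and 93.5 at day 5 and did not pass (log2 0.92, adjusted p = 0.114). The third member, miR-277, acts in Drosophila on the breakdown of branched-chain amino acids. Here dme-miR-277-3p stood at 5160.02 and 5753 at day 1 and 3149.7 and 4555 at day 5, lower in both day 5 libraries without passing the test (log2 -0.52, SE 0.23, adjusted p = 0.142). The glial and tracheal miRNA of Drosophila miR-274 (dme-miR-274-5p_R-1) also rose, from 662 and 708 to 1243 and 1579 (2.04-fold, log2 1.03, SE 0.25, adjusted p = 0.025).

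In all 10 sequences called higher under these 5 miRNA numbers the deeper day 5 library, replicate 2, lay above the shallower replicate 1. Replicate 1 was the higher of the day 5 libraries in 17 of the 31 sequences called higher and in 109 of all 214 tested. The 10 sequences are forms and arms of 5 miRNAs and are not independent.

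**Figure D2:**
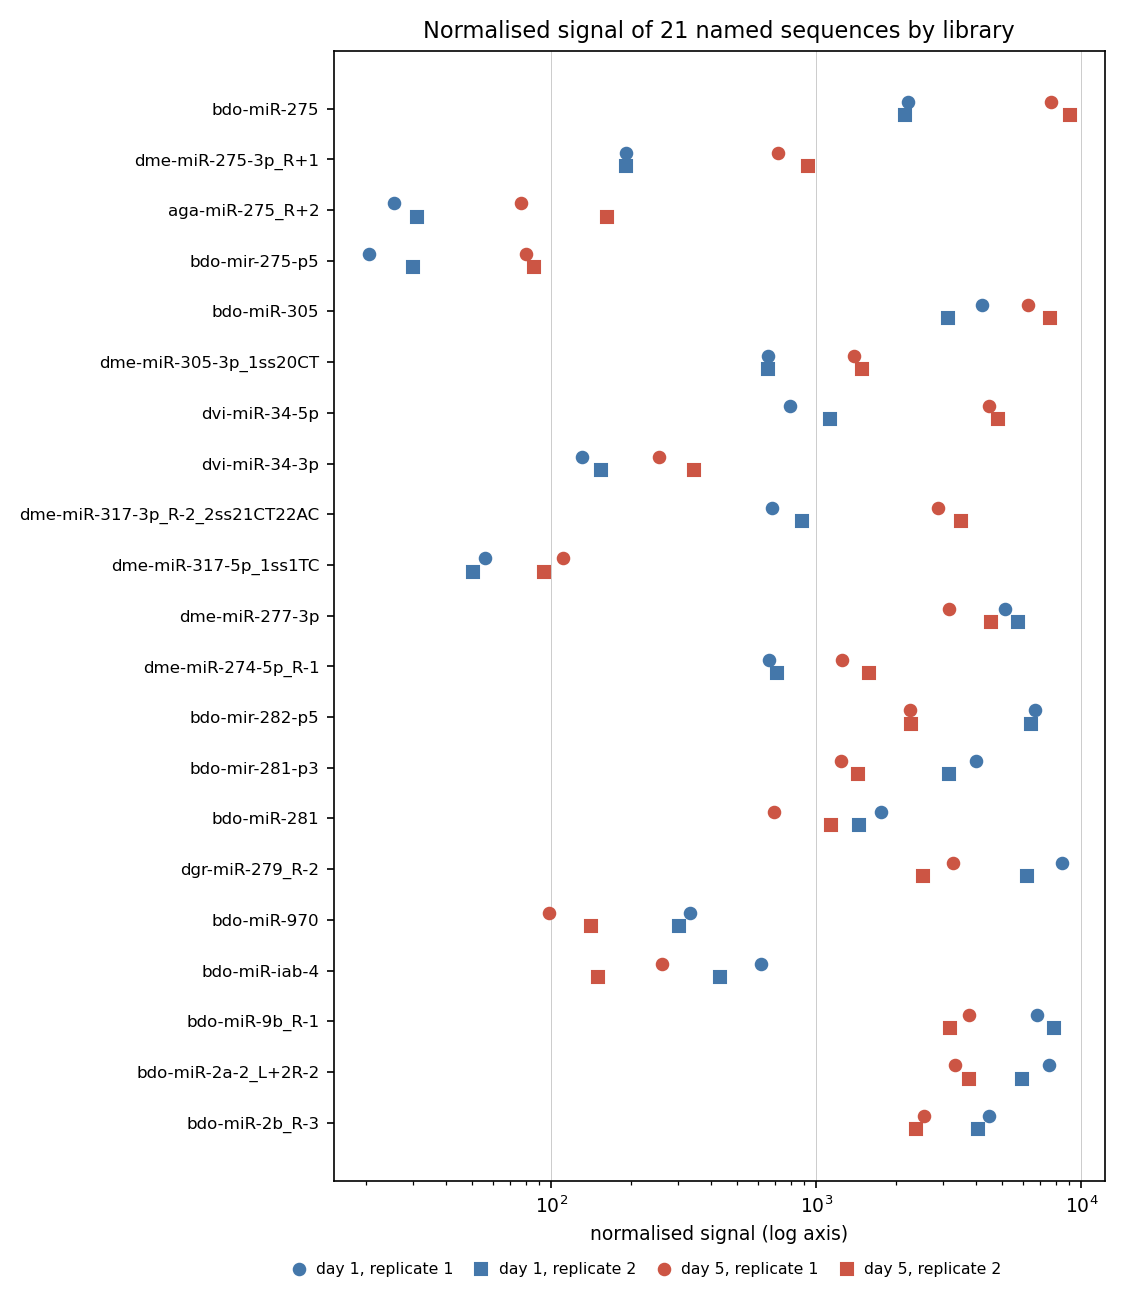
Normalised signal (log axis) of 21 sequences in the 4 libraries, with day 1 in blue, day 5 in red, circles for replicate 1 and squares for replicate 2. The rows of miR-275, miR-305 and miR-34 have the red symbols on the right, and the rows from bdo-mir-282-p5 down have them on the left.

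Among the falls was miR-282, which in Drosophila bears on viability and egg production. Its 5p arm bdo-mir-282-p5 stood at 6659 and 6448 at day 1 and 2256 and 2270.4 at day 5, 2.89-fold lower (log2 -1.53, SE 0.19, adjusted p = 0.00199). Replicates differed by little beside this change. Its shifted form dme-miR-282-5p_L+1R-2 stood at 34.3 and 38.1 at day 1 and 0 and 7.67 at day 5 and was called lower (log2 -3.66, SE 1.02, adjusted p = 0.0366). This form passed the limit on signal only through day 1. The miRNA miR-281, which in the silkworm acts on a form of the ecdysone receptor, fell in its 3p arm. This arm, bdo-mir-281-p3, stood at 4013 and 3176 at day 1 and 1240.2 and 1429 at day 5 (2.68-fold, log2 -1.42, SE 0.23, adjusted p = 0.00677). The other arm bdo-miR-281 stood at 1754 and 1448 at day 1 and 691 and 1134 at day 5 (log2 -0.85, adjusted p = 0.0739). Here the days did not overlap, but the test did not pass. The share of the 3p arm in the miR-281 signal was 69.0% and 67.9% at day 1 and 63.4% and 55.0% at day 5.

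The miRNA miR-279, which in Drosophila acts in sensory neurons, border cells and the rest and activity rhythm, fell as well. The sequence dgr-miR-279_R-2 stood at 8465 and 6211 at day 1 and 3269 and 2522 at day 5 (2.52-fold, log2 -1.34, SE 0.24, adjusted p = 0.00933). Its relative dme-miR-996-3p, with the same seed, stood at 383 and 388 at day 1 and 338 and 380.2 at day 5 (log2 -0.11, adjusted p = 0.826). The Hox cluster miRNA bdo-miR-iab-4 stood at 615 and 433 at day 1 and 261 and 150.2 at day 5 (2.6-fold, log2 -1.38, SE 0.37, adjusted p = 0.0327). Called lower too were bdo-miR-970 (2.68-fold, 333 and 303 to 98.2 and 141), aga-miR-957 (2.82-fold, 102 and 84.2 to 30.7 and 33.7) and bdo-miR-11593 (2.22-fold, 416 and 384 to 187 and 172). The predicted candidate PC-3p-50430_213 fell from 28.5 and 33.7 to 6.14 and 7.67, and passed the limit on signal only through day 1.

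All miR-2 sequences lay lower at day 5, and some of them fell. In Drosophila the miR-2 seed family represses proapoptotic genes. Of 8 tested miR-2 sequences, 3 were called lower, against 7.01% of all tested sequences. All 8 had lower signals in both day 5 libraries than in both day 1 libraries (32.7% of all tested). Their log2 changes ran from -1.18 to -0.69. The 8 are forms and arms of miR-2 and are not independent. Over the 4 libraries dme-miR-2a-3p_R+2_1ss19TG, summed from 2 entries, stood at 121.98, 164.84, 36.84 and 104.24. In exact proportion to this, dme-miR-2b-3p_R+2_1 stood at 60.99, 82.42, 18.42 and 52.12, so these 2 are not separate measurements. The form bdo-miR-2a-2_L+2R-2 stood at 7571 and 5956 at day 1 and 3319 and 3766 at day 5 (log2 -0.93, SE 0.21, adjusted p = 0.0194). The form bdo-miR-2b_R-3 stood at 4462 and 4069 at day 1 and 2549 and 2365 at day 5 (log2 -0.80, SE 0.20, adjusted p = 0.0256). The opposite arm bdo-mir-2b-2-p5 fell 2.27-fold. The abundant bdo-miR-11, which carries the same seed ATCACAG, stood at 10964 and 14749 at day 1 and 12685 and 13331 at day 5 (log2 0.03, adjusted p = 0.923). Both tested miR-6 sequences, again with this seed but at low level, were called higher and are given with the ovary markers. Over the 15 sequences with this seed, 2 were called in each direction and the median log2 change was -0.15, against -0.10 over all tested sequences.

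The miR-9 numbers also parted. In Drosophila miR-9a guards the number of sensory organ precursors. The sequence bdo-miR-9b_R-1 fell from 6779 and 7849.8 to 3748 and 3176 (log2 -1.08, SE 0.20, adjusted p = 0.0104), and bdo-miR-9c stood at 8548 and 8709 at day 1 and 6401 and 4544 at day 5 (log2 -0.68, adjusted p = 0.0555). The sequence aae-miR-9a rose from 132 and 231 to 954 and 528 (log2 2.02, SE 0.41, adjusted p = 0.014). All of these share the seed CTTTGGT. Of the 45 miRNA numbers with 2 or more tested sequences, miR-9 was the single one with calls in both directions, 8 had calls higher only, 6 lower only and 30 had none.

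**Figure D3:**
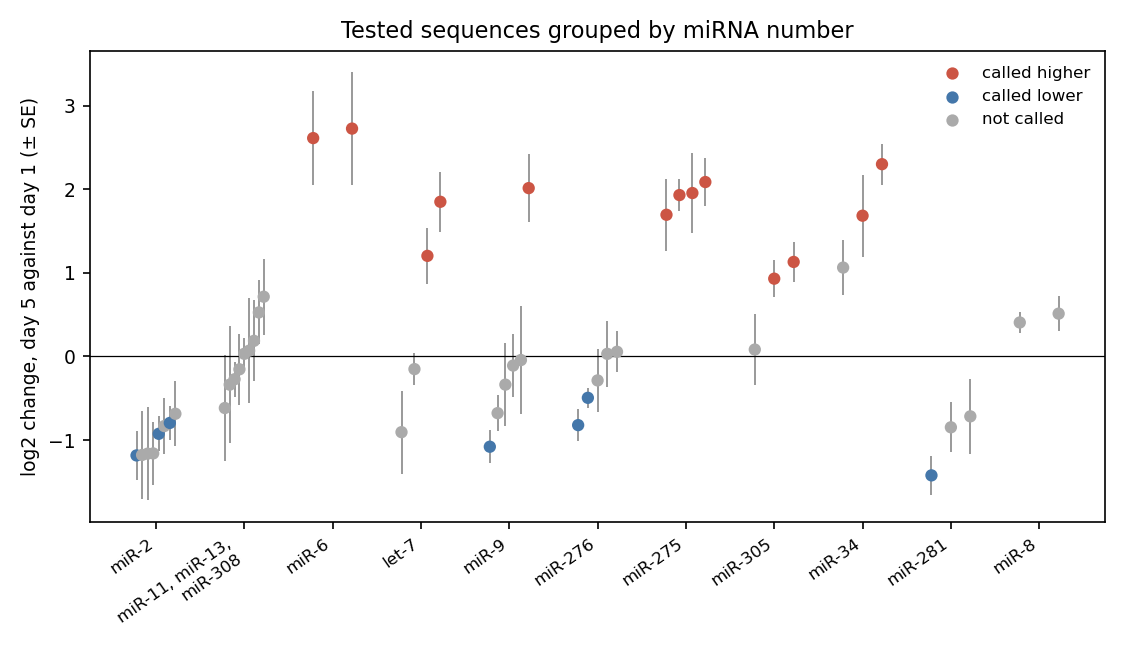
Log2 change from day 1 to day 5 with its SE for the tested sequences of 13 miRNA numbers, coloured by limma call. The 4 miR-275 sequences lie together near 2, the 8 miR-2 sequences near -1, and the miR-9 and let-7 sequences spread over both sides of 0.

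The most abundant miRNA, miR-276a, fell, and miR-8 held the largest share at day 5. The 10 most abundant sequences held between 80.7% and 82.3% of each library. The miRNA bdo-miR-276a, known in Drosophila from memory and in locusts from egg hatching, took 36.2% and 36.2% of the library totals at day 1 and 29.1% and 25.95% at day 5. Its signal was 249217 and 252459.6 at day 1 and 191221 and 165739 at day 5, which was called lower (1.41-fold, log2 -0.49, SE 0.12, adjusted p = 0.025). Its paralogue bdo-mir-276b-p3, with the same seed, fell from 12464 and 12460.2 to 8055 and 6174 (log2 -0.82, SE 0.19, adjusted p = 0.0237). The miRNA bdo-miR-8_R+1, which in Drosophila promotes body growth through insulin signalling in the fat body, took 21.8% and 23.3% of the library totals at day 1 and 29.4% and 34.8% at day 5. Its signal was 150156 and 162212 at day 1 and 192827 and 222100.5 at day 5, higher in both day 5 libraries without passing the test (log2 0.41, SE 0.13, adjusted p = 0.0534). Its other arm dme-miR-8-5p stood at 3132 and 3235 at day 1 and 4039.9 and 5107 at day 5 (log2 0.51, adjusted p = 0.112). Thus miR-276a was the first sequence of both day 1 libraries and miR-8 of both day 5 libraries. With 2 libraries a side, an exact permutation test of a share cannot go below a two-sided p of 0.333. Shares of 1 library add up to a fixed total, so a larger share of miR-8 and a smaller share of miR-276a are not separate facts.

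The remaining abundant sequences did not pass. The muscle miRNA bdo-miR-1 stood at 42299.6 and 41188 at day 1 and 36961 and 35205 at day 5 (log2 -0.21, adjusted p = 0.302). The miRNA bdo-miR-184, which in Drosophila acts in the germline, stood at 42306 and 39092 at day 1 and 44019 and 33802 at day 5 (log2 -0.08, adjusted p = 0.785). In ovary it stood lower, at 26069 and 31380 at day 1 and 28527 and 26984 at day 5. The sequence dme-miR-31b-5p_R+1_1ss15AC stood at 20766 and 20451 at day 1 and 15524 and 13126 at day 5. It was lower in both day 5 libraries without passing the test (log2 -0.53, adjusted p = 0.0534). The log2 change was -0.41 for bdo-miR-14, a miRNA of fat metabolism, -0.20 for bdo-miR-999 and -0.04 for bdo-miR-263a_R-3. The signs of bdo-miR-184, bdo-miR-263a_R-3 and bdo-miR-11 turned under at least 1 other scaling, and that of bdo-miR-999 without 1 library.

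A few sequences below these were named after their values were seen. Some had arms or neighbours that lay in different directions. The miRNAs miR-12, miR-283 and miR-304 lie in 1 cluster in Drosophila. Here bdo-miR-12_R+1 stood at 3526 and 3966 at day 1 and 4169 and 5759.7 at day 5 (log2 0.39, adjusted p = 0.243), bdo-miR-304_R-1 at 4343 and 5283 at day 1 and 7349 and 5878 at day 5 (log2 0.46, adjusted p = 0.151) and bdo-miR-283 at 965 and 1047 at day 1 and 629 and 768 at day 5 (log2 -0.53, adjusted p = 0.164). The days did not overlap for any of the 3, with the first pair higher and miR-283 lower at day 5, and none passed. The arm bdo-mir-11593-p3 stood at 80.6 and 60.3 at day 1 and 206 and 119.6 at day 5 (log2 1.16, adjusted p = 0.0748), higher at day 5 without passing, while the arm bdo-miR-11593 was called lower. The sequence bdo-miR-316 stood at 1992 and 1917 at day 1 and 1274 and 1346 at day 5 (log2 -0.58, adjusted p = 0.0888). Its other arm bdo-mir-316-p3 had the same sign (log2 -0.48).

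**Figure D4:**
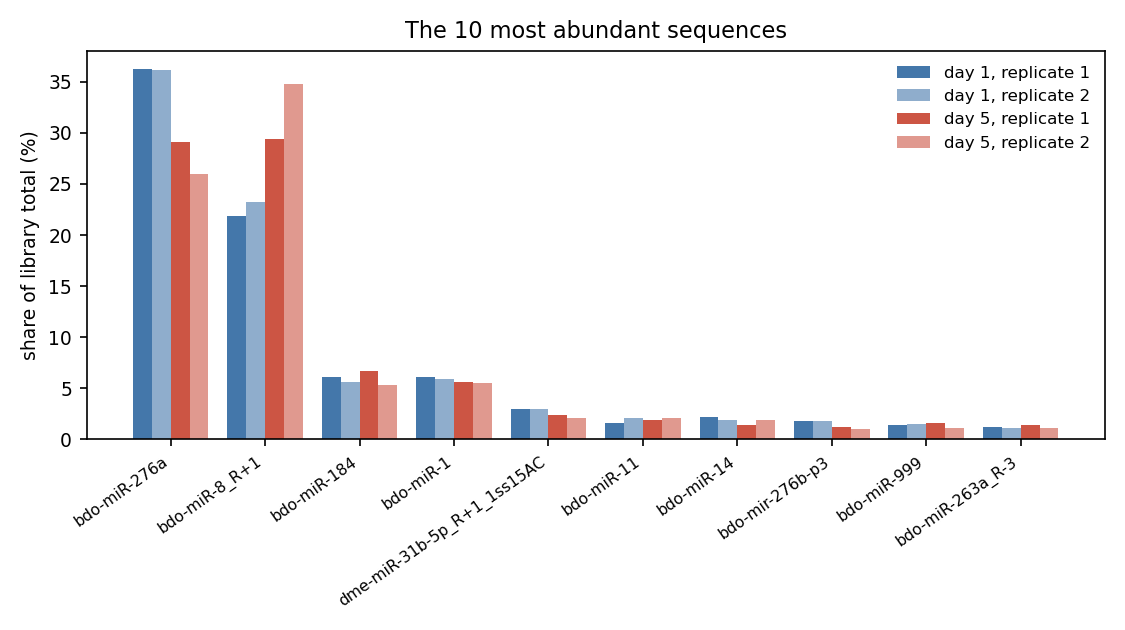
Share of the library total (%, bars from 0) of the 10 most abundant sequences in each of the 4 libraries. The bars of bdo-miR-276a are above 36% at day 1 and below 30% at day 5, and those of bdo-miR-8_R+1 pass them at day 5.

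The let-7 complex, whose miRNAs come from 1 transcript in Drosophila and mark the timing of metamorphosis, had main forms under the names of this species and other sequences matched to those of other species. The main forms did not pass the test. The sequence bdo-let-7 stood at 7695 and 6231 at day 1 and 6091 and 6387 at day 5 (log2 -0.15, adjusted p = 0.628). The sequence bdo-miR-100 stood at 1926 and 2527 at day 1 and 2744 and 2217 at day 5 (log2 0.16, adjusted p = 0.702), and bdo-miR-125 at 1734 and 2258 at day 1 and 1882 and 2062 at day 5 (log2 -0.01, adjusted p = 0.991). A p that misses the threshold does not show that these levels were equal. The signs of these 3 turned without at least 1 of the libraries, and that of bdo-miR-125 also with library totals as the scale. Sequences that the table matches, with a substitution, to let-7 or miR-100 of other species rose. Whether they come from the fly's own genome was not tested, since no genome was used here. The form dpu-miR-100_R-2_1ss16AT stood at 272 and 410.3 at day 1 and 1759 and 1138 at day 5 (4.22-fold, log2 2.08, SE 0.33, adjusted p = 0.00677), and its part in the miR-100 signal went from 12.3% and 13.8% to 38.9% and 33.7%. The form pte-let-7-5p_1ss12GA rose from 98.8 and 140.02 to 522 and 349.5 (log2 1.85, SE 0.36, adjusted p = 0.0114), and aae-let-7_R+1_1ss10TA from 176 and 185 to 522 and 334 (log2 1.20, SE 0.33, adjusted p = 0.036). The substitution in the name aae-let-7_R+1_1ss10TA is against the matched species. Against bdo-let-7 this sequence has no substitution and 1 more base at the right end.

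In these 3 forms and aae-miR-9a the signal rose in the order in which depth fell over all 4 libraries. The same order held for 14 of the 31 sequences called higher and for 29 of all 214 tested. As recovered reads, dpu-miR-100_R-2_1ss16AT had 609 and 461 reads at day 1 and 572 and 744 at day 5, and aae-miR-9a had 296 and 260 reads at day 1 and 310 and 346 at day 5. The form pte-let-7-5p_1ss12GA had 221 and 157 reads at day 1 and 170 and 229 at day 5, and aae-let-7_R+1_1ss10TA had 394 and 208 reads at day 1 and 170 and 219 at day 5. The total reads differed 7.21-fold between the deepest and the shallowest library. For bdo-miR-275 recovery gave 4941 and 2417 reads at day 1 and 2491 and 5905 at day 5. The part of depth in these rises was not tested.

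Short predicted candidates were among the calls with the highest folds. Of the 42 tested sequences of 18 to 20 bases 12 were called higher and 1 lower, with a median log2 change of 0.68, against 19 higher and 14 lower of the 172 longer ones. Of the 46 predicted candidates 9 were called higher and 1 lower, against 14.5% and 7.01% of all tested sequences. All 9 had 18 to 20 bases. The candidate PC-3p-38123_304 stood at 1.78 and 23.04 at day 1 and 209 and 104 at day 5 (18.2-fold, log2 4.18, SE 0.94, adjusted p = 0.0194), the largest fold among the called sequences. Its day 1 libraries lay far apart, with 4 and 26 recovered reads. With day 1 replicate 1 under 10, it needed a day 5 signal to pass the limit on signal. The candidate PC-3p-4072_4097 stood at 81.5 and 226 at day 1 and 1142 and 800.2 at day 5 (log2 2.81, SE 0.48, adjusted p = 0.00881). The most abundant, PC-3p-2481_6747, stood at 272 and 259 at day 1 and 1406 and 848 at day 5 (log2 2.04, SE 0.32, adjusted p = 0.00677). Also higher were PC-5p-27616_453 (8.34-fold), PC-3p-8533_1829 (6.05-fold) and PC-3p-27304_459 (5.24-fold). The other 3 had low signals, between 0.45 and 5.32 at day 1 and between 10.7 and 72.1 at day 5. They passed the limit on signal only through day 5.

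Both sequences that the table names after a silkworm miRNA, bmo-mir-6497, each with 18 bases, rose too. The p5 sequence bmo-mir-6497-p5_1ss12AG stood at 93.9 and 96.6 at day 1 and 703 and 678 at day 5 (7.18-fold, log2 2.84, SE 0.29, adjusted p = 0.00113). The p3 sequence bmo-mir-6497-p3_1ss3AG stood at 895 and 777 at day 1 and 4019.97 and 2180 at day 5 (log2 1.83, SE 0.32, adjusted p = 0.00881). The last 9 bases of the p5 sequence are the first 9 of the p3 sequence, so they overlap in sequence. Whether they are arms of a hairpin or parts of 1 longer RNA was not tested, and the miRNA name is that of the table. In all 9 predicted candidates called higher and in both of these the shallower day 5 library, replicate 1, had the higher signal, as in 17 of the 31 called higher and 109 of all 214. For 7 of the 9 candidates the signal rose in the order in which depth fell, as for 14 of the 31. The part of depth in these rises was not tested.

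**Figure D5:**
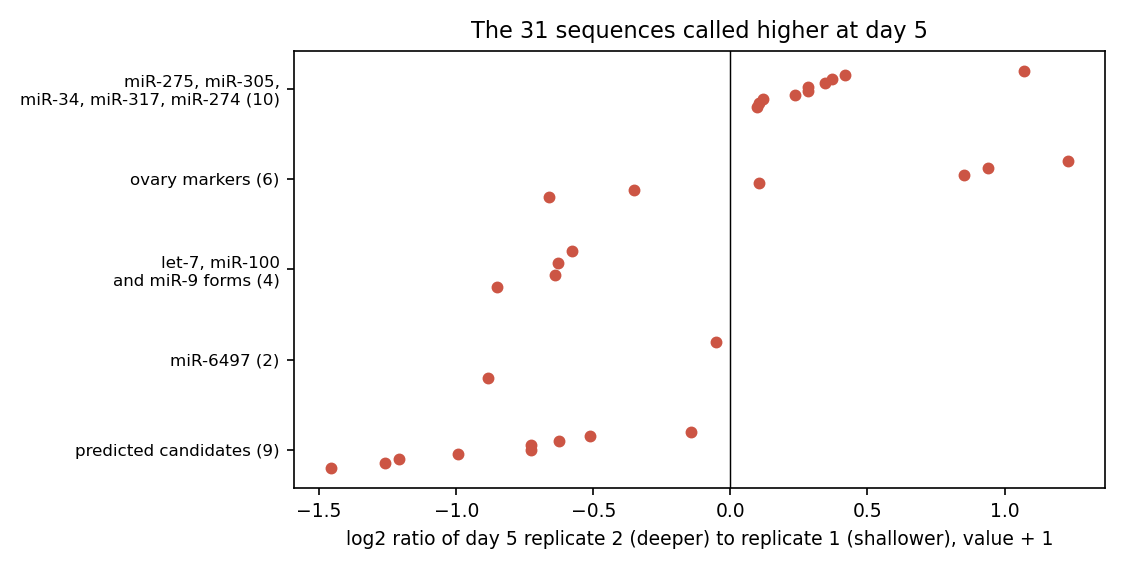
Log2 ratio of day 5 replicate 2, the deeper library, to day 5 replicate 1, the shallower one, for the 31 sequences called higher at day 5, by group. All 10 sequences of miR-275, miR-305, miR-34, miR-317 and miR-274 lie right of 0, and all predicted candidates, miR-6497 sequences and let-7, miR-100 and miR-9 forms lie left of it. Over all 31, 17 lie left of 0 and 14 right.

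Markers of other tissues that a dissection could hold were read in the same libraries. Some ovary markers rose at day 5 from a low level. Of 14 tested ovary marker sequences 6 were called higher and 0 lower, against 14.5% and 7.01% of all tested sequences. Another count, of those higher without overlap, was 12, against 32.2% of all tested. Of these, bdo-miR-5a, bdo-miR-5b, bdo-mir-5a-p3, dme-miR-6-3p_R-2_1ss1TC and pte-miR-92b-3p_R+1_1ss10CT were under 10 in both day 1 libraries. They passed the limit on signal only through day 5, so their lack of overlap was fixed in advance. At day 1 bdo-miR-6 stood at 9.79 and 21.3, bdo-miR-286 at 5.34 and 10.6 and bdo-miR-4_R-2 at 4.01 and 10.6. These also needed a day 5 signal to pass the limit. The sequences dme-miR-6-3p_R-2_1ss1TC, bdo-miR-6 and bdo-miR-286 are among the 6 called, so both counts depend in part on the limit. Another 35 ovary marker sequences of the table did not reach the limit on signal, 18 of the 49 being at 0 in all 4 libraries. The summed share of the list was 0.225% and 0.297% at day 1 and 0.408% and 0.410% at day 5, while it was 7.09% and 9.45% in ovary at day 5. The border cell miRNA dvi-miR-989-3p_R+1 stood at 98.4 and 323 at day 1 and 899 and 569 at day 5 (3.99-fold higher, adjusted p = 0.0327), against 21167 and 28623 in ovary at day 5. The fat body level was thus 2.95% of the ovary mean of that day. The sequence bdo-miR-318, abundant in Drosophila ovaries, stood at 14.2 and 20.4 at day 1 and 82.9 and 150.2 at day 5 (log2 2.64, SE 0.48, adjusted p = 0.0104), against 36.8 and 47.5 in ovary at day 5. Its neighbour bdo-miR-994_R+1 stood at 38.7 and 88.6 at day 1 and 224 and 527 at day 5 (log2 2.53, SE 0.54, adjusted p = 0.0165), against 145 and 210.4. For these the fat body level at day 5 was 276% and 211% of the ovary mean of that day, so their signal was lower in the ovary libraries of that age than in the fat body libraries. The fat body mean at day 5 was above the ovary mean for 9 of the 14 tested sequences. That count includes sequences kept only through their day 5 fat body signal.

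The other calls of this list were of miR-6 and miR-286, members of the miR-309 cluster, which clears maternal mRNA in Drosophila embryos. No miR-309 sequence reached the limit on signal, and the tested miR-4 and miR-5 sequences were not called. The sequence bdo-miR-6 stood at 9.79 and 21.3 at day 1 and 67.5 and 130.3 at day 5 (log2 2.61, SE 0.56, adjusted p = 0.0165). The shorter dme-miR-6-3p_R-2_1ss1TC went from 2.23 and 3.54 to 27.6 and 21.5, and bdo-miR-286 from 5.34 and 10.6 to 39.9 and 42.9 (log2 2.30, SE 0.57, adjusted p = 0.025). The day 5 levels were 197% of the ovary mean for bdo-miR-6, 165% for dme-miR-6-3p_R-2_1ss1TC and 81.5% for bdo-miR-286. These are low levels, bdo-miR-286 having 12 and 12 reads at day 1 and 13 and 28 at day 5. Other ovary markers did not pass. The sequence ame-miR-92a-3p_L+1 stood at 69.7 and 113 at day 1 and 239 and 178 at day 5 (log2 1.21, adjusted p = 0.0555), bdo-miR-92b had a log2 change of 0.54, and bdo-miR-7_R-3, the most abundant of the list, stood lower at day 5, at 887 and 757 from 1241 and 1382 (log2 -0.68, adjusted p = 0.0761). The part of ovary tissue in these values was not tested.

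Among muscle, nerve and gut markers 1 sequence was called. The muscle list took between 6.33% and 6.73% of every library. None of its 4 tested sequences, all of miR-1, was called. Its main form lay lower at day 5 without overlap, and the other 3 lay higher without overlap, dme-miR-1-3p_R+1 by log2 0.25, isc-miR-1_R+2 by 0.39 and the opposite arm bdo-mir-1-p5 by 1.79, at 11.6 and 23.04 at day 1 and 39.9 and 87.4 at day 5. The other muscle marker aae-miR-133 was at 0 in 3 libraries and at 1.53 in day 5 replicate 2. The share of the nerve list went from 0.158% and 0.154% to 0.121% and 0.0816%, with 0 of 4 tested sequences called. Its member bdo-miR-137 stood at 840.5 and 851 at day 1 and 528 and 369 at day 5 (log2 -0.94, adjusted p = 0.052), bdo-miR-1000 had a log2 change of -0.81 and bdo-miR-124 of 0.02, whose sign turned with the median of ratios as the scale. The share of the gut list went from 2.27% and 2.04% to 1.85% and 1.64%, with 1 of 9 sequences called lower, bdo-mir-281-p3, against 7.01% of all tested sequences, and 6 lower without overlap, against 32.7%.

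Over all tested sequences 14.5% were called higher and 7.01% lower, the background of the list counts here. The egg development and yolk list had 7 of 11 tested sequences called higher and 0 lower, with a median log2 change of 1.13 against -0.10 over all. The 7 were the 4 miR-275, 2 miR-305 and the miR-989 sequence, and miR-8 and miR-277 did not pass. The fat body and metabolism list had 2 of 16 called higher, both miR-305, and 2 lower, both miR-276, with a median of -0.13, so that its share called higher lay near that background. Its member dme-miR-278-3p, which acts on insulin response in the Drosophila fat body, stood at 6197 and 5135 at day 1 and 5053 and 3250.1 at day 5 (log2 -0.48, adjusted p = 0.206). The ecdysone and let-7 list had 5 of 18 called higher and 0 lower, namely 2 of let-7, 1 of miR-100 and 2 of miR-34. The let-7 and miR-100 calls are the sequences matched to other species, whose origin was not tested. Of these, aae-let-7_R+1_1ss10TA is bdo-let-7 with 1 more base. The ageing cluster had 3 of 6 higher and 0 lower. The miR-279 family had 1 of 4 higher (miR-286) and 1 lower (miR-279). In all, 36 called sequences carried a known name, the overlapping miR-6497 sequences included, and belonged to 23 miRNA numbers. Forms and arms of 1 miRNA thus make up part of each count and are not independent. The lists share members, and miR-33, miR-3, miR-1890 and bantam had no sequence under these names among those analysed here.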

How the data were processed

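Per the labels' protocols, total RNA was extracted with Trizol, TruSeq small RNA libraries were sequenced on an Illumina HiSeq, and ACGT101-miR removed adapter dimers, low complexity reads, other RNA families and repeats. Per the file headers (norm), the deposited values are a normalised signal. Its scaling, the aligner and the build are steps not given in the sources used here. Of 788 entries in all there were 747 distinct sequences, and the 41 repeated entries, which held identical values, were summed.

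On log2(value + 1), a limma model with an intensity trend (3.58.1, under R 4.3.3) was fitted to the 4 fat body libraries, 2 per day, over the 214 kept sequences, two-sided, with Benjamini-Hochberg adjustment over all of them and a threshold of 0.05. The SE is that of the moderated fit. Low values were multiples of 1 step per library, between 98.1% and 100% of them whole or at 0.5 of a step within a tolerance of 0.1. Dividing by the step gave the recovered reads, on which edgeR (4.0.16, quasi-likelihood, TMM) and DESeq2 (1.42.0) were run as alternatives. Intervals are not given because PCR copies of a molecule cannot be recognised in these reads. No library was a copy of its replicate, the chi-square per degree of freedom being 23.4 at day 1 and 28.0 at day 5.

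Named sequences were the 10 most abundant, the 10 called with the largest fold in each direction whose higher group mean was at least 100, members of the lists and other forms of these. Members, lists and rules were chosen with earlier results of these data known. Alternatives were other scalings, pseudocounts, filters, variance models, sample sets, a replicate block and leaving out each library.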

Additional observations from a re-analysis of the deposited data

How the results depend on the processing

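The count of 46 called sequences was 2 with all 16 libraries in the fit (43 at an unadjusted p under 0.05), 6 with no filter on low values and 17 with no intensity trend. Without 1 library in turn it ran from 0 to 41, with 26 without day 5 replicate 1 and 0 without either day 1 library. When a library is left out, the lone library of its day is assumed to vary like the other group. The count lay within 1.5 times of 46 under the other alternatives, from 36 for sequences with a signal of at least 100 to 63 with pseudocount 10. A fit to sequences of at least 21 bases, added after seeing the data, called 53. Under limma, edgeR, DESeq2, both pseudocounts, all scalings, the block, the robust setting, averaged entries and the fit to 12 libraries of days 1, 5 and 13, 35 were called throughout. With the median of ratios as the scale the median of all sequences moved from -0.10 to -0.22 on the log2 scale, and 28 were higher and 19 lower.

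Over all reported values and alternatives, 1184 kept direction and side of the threshold, 270 no longer passed, 56 newly passed and 21 changed sign, all of uncalled sequences. With library totals the log2 change was 0.021 for bdo-miR-184, 0.058 for bdo-miR-263a_R-3 and 0.091 for bdo-miR-125, and with totals without the 5 most abundant 0.009, 0.045 and 0.079. With the median of ratios it was -0.079 for bdo-miR-11 and -0.095 for bdo-miR-124. For bdo-miR-11 it was -0.011 with edgeR and -0.001 with DESeq2. Without 1 library in turn, changes whose sign turned ran from -0.182 to 0.246 for bdo-miR-11, -0.035 to 0.357 for bdo-miR-100, -0.303 to 0.001 for bdo-let-7, -0.765 to 0.797 for bdo-miR-124, -0.197 to 0.184 for bdo-miR-125, -0.267 to 0.114 for bdo-miR-184, -0.478 to 0.078 for bdo-miR-999 and -0.236 to 0.157 for bdo-miR-263a_R-3. The cause was not tested.

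Libraries with the same replicate number showed little shared deviation, the correlation of replicate differences between the days being 0.083 over 214 sequences. This cannot show whether the samples were paired, which the labels do not give. With the replicate block limma called 63 sequences, 37 higher and 26 lower. The day 5 depth limits low values, a signal of 10 being 3.25 reads in day 5 replicate 1.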
